A study of Mus musculus with 4 samples.

Results

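The 46 genes described here encode the machinery that carries proteins between the endoplasmic reticulum (ER) and the Golgi in mouse liver. They were chosen by name, from textbook roles in the COPII and COPI coats, cargo receptors, KDEL receptors, SNAREs and tethers. Earlier results of these data were known at that choice. All 46 were found among the 25572 loci of the deposited expression table. Liver RNA was sequenced from C57BL/6J mice at 8 weeks of age, with 2 libraries labelled Ern1-LKO, a liver-specific knockout of Ern1, and 2 labelled WT as its controls. The sources used here do not name the driver of the deletion. Levels are the authors' FPKM (fragments scaled to transcript length and to the mapped total), 1 value per genotype, so the spread between animals is not shown and all values below carry no n of their own. A gene was called when its q in the authors' deposited table, a p-value adjusted over 13320 tested loci, lay under 0.05. The smallest q of any tested locus was 0.00343, and genes at that value cannot be ranked by it.

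COPII coats bud vesicles from ER exit sites and load them with secretory proteins, whereas COPI coats return escaped ER proteins and receptors from the Golgi. SNAREs and tethers dock and fuse the vesicles with their target membranes. Hepatocytes secrete most plasma proteins and lipoproteins and use this route heavily. Ern1 encodes IRE1α, an ER stress sensor whose RNase activity splices Xbp1 mRNA, and the spliced product encodes a transcription factor known to drive genes of the ER and of vesicle transport. The comparison asks how transcripts of this machinery differ when Ern1 is deleted in the liver.

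Ern1 stood at 30.2 FPKM in LKO-labelled livers and 21.4 FPKM in WT livers. Its log2 fold change was 0.50 (implied SE 0.19), with an unadjusted p of 0.0084 and q = 0.172 in the authors' deposited table. A value over the whole gene counts exons outside a deleted part too, so this gives no check of the labels, and each direction below holds for the libraries as labelled. The 7 hepatocyte markers summed to 24878 FPKM in LKO-labelled livers and 25353 FPKM in WT livers, with none called. Markers of other cells moved in part: the 8 stellate markers were all higher in LKO-labelled livers, summing to 89.4 FPKM against 63.0 FPKM in WT livers, with Col1a1 and Col3a1 called. The 6 adipocyte markers summed to 36.7 FPKM in LKO-labelled livers and 17.7 FPKM in WT livers. Most of both sums was Fabp4, not called, at 24.9 FPKM in LKO-labelled livers and 17.5 FPKM in WT livers. Retn was called, at 2.06 FPKM in LKO-labelled livers, and was listed at 0 in WT, as was Lep. The 4 neutrophil markers found summed to 12.3 FPKM in LKO-labelled livers, where Mpo was listed at 0, and 21.9 FPKM in WT livers. Of 12 pancreatic acinar markers, 10 were listed at 0 in LKO-labelled livers and 1 (Amy2a5) in WT livers, while the sums of 60.3 FPKM in LKO-labelled livers and 55.0 FPKM in WT livers came mostly from Cela1. Cela3b, Try4, Prss2 and Pnlip were called lower, at 0.44 to 0.74 FPKM in WT livers and 0 in LKO-labelled livers, so these calls lie at very low levels. Sums of the 7 Kupffer markers were 229 FPKM in LKO-labelled livers and 232 FPKM in WT livers. Most of both sums was Cd68, at 150 FPKM in LKO-labelled livers and 163 FPKM in WT livers. The other 6 Kupffer markers all lay above WT, and none of the list was called. The 7 endothelial markers summed to 90.9 FPKM in LKO-labelled livers and 85.1 FPKM in WT livers, with Vwf called higher. Bile duct markers (6 genes) summed to 34.9 FPKM in LKO-labelled livers and 40.7 FPKM in WT livers. Most of both sums was Spp1, at 30.3 FPKM in LKO-labelled livers and 37.2 FPKM in WT livers. Spp1 and Cftr lay below WT and the other 4 bile duct markers above it. Plasma and B cell markers (7 genes) summed to 9.58 FPKM in LKO-labelled livers and 10.04 FPKM in WT livers, with Tnfrsf17 listed at 0 in both. No gene of these 2 lists was called. The part of these cells in the results below was not tested. In bulk tissue, fewer cells of a type and less RNA per cell cannot be told apart.

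Of the transport genes 5 fell in LKO-labelled livers, Tmed3, Bet1, Sec23b, Uso1 and Sec24d, and none rose. They come from different steps, a p24 cargo receptor, a SNARE, a pair of inner COPII coat subunits and a Golgi tether. The 5 falls are 10.9% of the 46 genes, where 1.16% of all tested loci were called lower and 1.58% higher. Among the 6666 tested loci with a mean FPKM of at least 5, a filter that 44 members passed and Sec24b and Kdelr3 did not, 1.40% were called lower and 1.26% higher. Direction was shared more widely than calls: 42 of 46 members lay below WT. Of all tested loci 52.1% lay below WT, and of those with a mean FPKM of at least 5, 58.6%. The median log2 fold change was -0.27 over the members, a level of 82.9% of WT. It was -0.01 over all tested loci and -0.03 over those with a mean FPKM of at least 5. The authors' deposited table gives an unadjusted p under 0.05 to 18 members that were lower and to none that were higher. These 18 are 39.1% of the members, where 4.53% of tested loci were lower and 5.74% higher. Of the 6666 loci with a mean FPKM of at least 5, 344 (5.16%) were lower and 250 higher at that p. The summed FPKM of the 46 genes was 1719 in LKO-labelled livers and 2110 in WT livers. These counts describe genes picked with earlier results in view and are no test over the list.

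**Figure D1:**
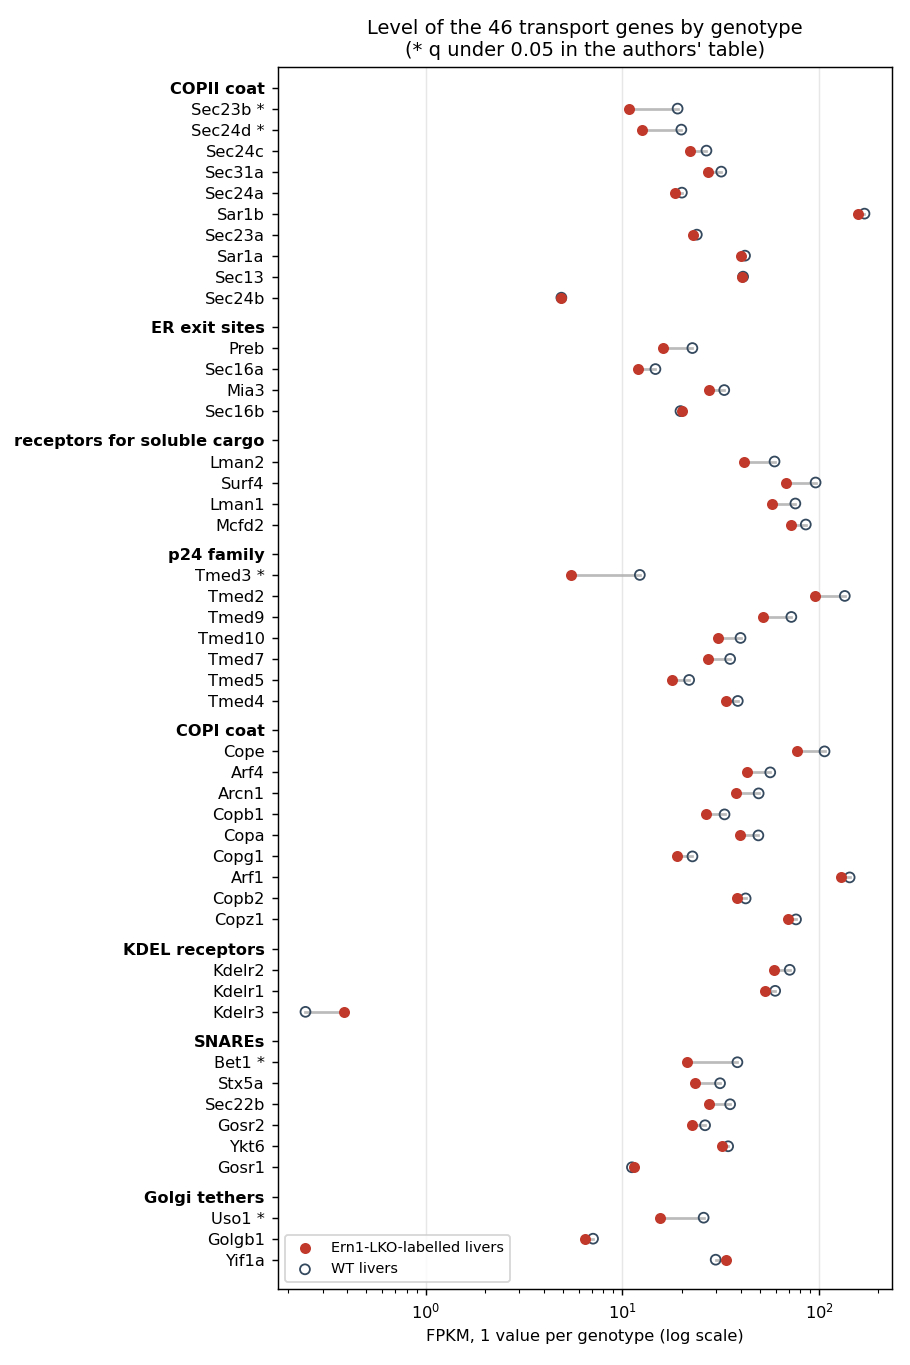
FPKM (log axis) of each of the 46 genes in Ern1-LKO-labelled livers (filled red) and WT livers (open), 1 value per genotype, grouped by role. A star marks the 5 genes called in the authors' table; 42 of the 46 red points lie left of the open ones.

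**Figure D2:**
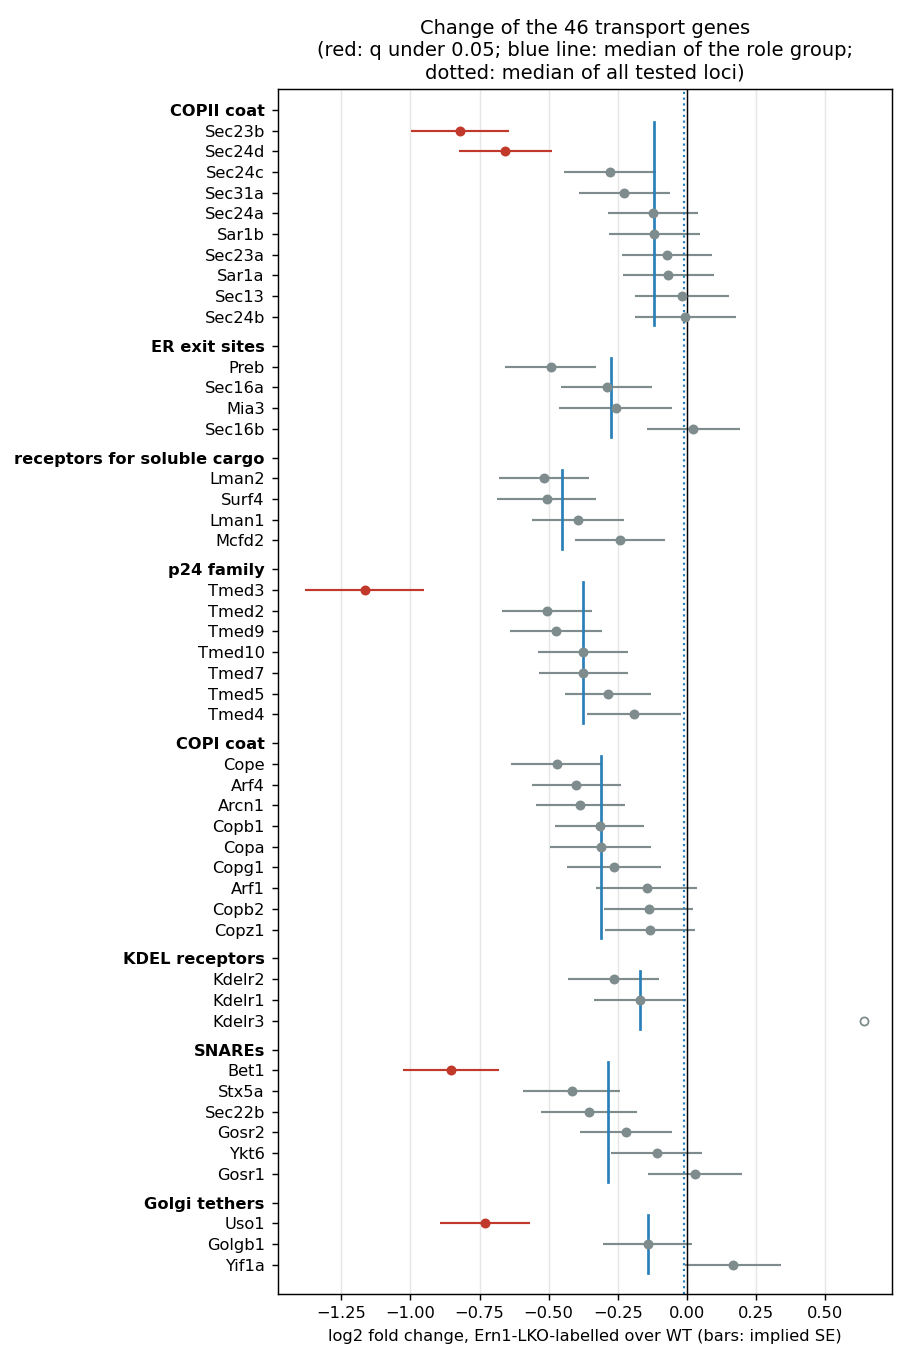
Log2 fold change of each gene, Ern1-LKO-labelled over WT, with the standard error implied by the authors' test statistic as bars. The open point is Kdelr3, whose error of 4.46 is not drawn; the 5 called genes in red lie between -1.17 and -0.66, and the blue lines give the median of each role group.

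Medians of the change, each over 3 to 10 genes, were compared across roles. Group medians of the log2 fold change were lowest for the receptors of soluble cargo (-0.45) and the p24 family (-0.37). The COPI coat (-0.31), the SNAREs (-0.29) and the ER exit site genes (-0.27) followed. Mildest were the KDEL receptors, Kdelr3 included (-0.17), the Golgi tethers, Yif1a included (-0.14), and the COPII coat (-0.12). Each median lay from the next by less than the median implied SE of the members, 0.17. Genes of 1 role could lie far apart: the COPII coat, with the mildest median, holds 2 of the 5 called genes and ran from -0.82 to -0.01. No test between roles was run.

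**Figure D3:**
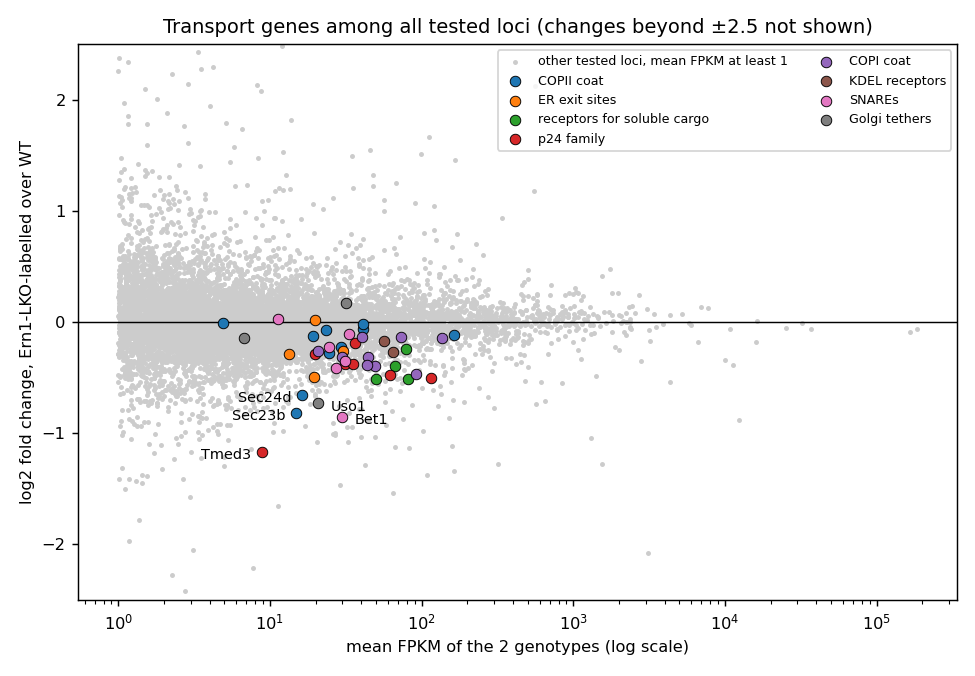
Log2 fold change against mean FPKM (log axis) for tested loci of mean FPKM at least 1 (grey) and for the transport genes, coloured by role; Kdelr3 lies below this level. The called genes are named; most transport genes sit between 0 and -0.5 at middle to high levels.

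The promoters of the 5 called genes are shown because genes that fell together can be compared in the letters that factors of the unfolded protein response are known to bind. XBP1 is known to bind an element with an ACGT core, of which TGACGTG is one form, and the ER stress element ends in CCACG. Copb1, a coatomer subunit that was not called, is shown beside them because its promoter holds the longer form. The sequences are the 250 bases before the RefSeq start on GRCm38.p6, given 5′ to 3′ on the gene's strand. Capitals mark matches on either strand to TGACGTG, to its core ACGT and to CCACG. The long form contains the core, and where a G follows it overlaps CCACG on the other strand. They lie at chr9:89705044-89705293 on the minus strand for Tmed3, chr6:4086931-4087180 on the minus strand for Bet1, chr2:144555979-144556228 on the plus strand for Sec23b, chr5:92137688-92137937 on the plus strand for Uso1, chr3:123267246-123267495 on the plus strand for Sec24d and chr7:114254681-114254930 on the minus strand for Copb1.
Tmed3: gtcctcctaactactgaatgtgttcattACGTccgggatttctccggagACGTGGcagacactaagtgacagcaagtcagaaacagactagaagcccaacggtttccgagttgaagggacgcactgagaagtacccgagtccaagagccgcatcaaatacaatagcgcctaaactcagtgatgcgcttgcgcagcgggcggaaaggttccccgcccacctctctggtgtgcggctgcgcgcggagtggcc
Bet1: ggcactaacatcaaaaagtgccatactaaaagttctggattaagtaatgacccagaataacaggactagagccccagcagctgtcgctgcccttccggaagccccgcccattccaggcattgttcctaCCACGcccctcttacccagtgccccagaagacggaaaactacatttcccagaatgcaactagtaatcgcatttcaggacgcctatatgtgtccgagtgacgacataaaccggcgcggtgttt
Sec23b: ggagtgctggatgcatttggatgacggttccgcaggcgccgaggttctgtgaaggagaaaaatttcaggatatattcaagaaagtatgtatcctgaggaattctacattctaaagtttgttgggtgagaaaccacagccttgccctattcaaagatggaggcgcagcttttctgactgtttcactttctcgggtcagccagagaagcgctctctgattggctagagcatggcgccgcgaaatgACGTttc
Uso1: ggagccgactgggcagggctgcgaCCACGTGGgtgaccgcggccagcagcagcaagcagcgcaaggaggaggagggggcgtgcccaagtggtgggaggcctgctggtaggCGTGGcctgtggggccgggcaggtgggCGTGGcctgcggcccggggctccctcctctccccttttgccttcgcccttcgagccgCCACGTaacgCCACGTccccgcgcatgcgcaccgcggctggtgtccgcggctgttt
Sec24d: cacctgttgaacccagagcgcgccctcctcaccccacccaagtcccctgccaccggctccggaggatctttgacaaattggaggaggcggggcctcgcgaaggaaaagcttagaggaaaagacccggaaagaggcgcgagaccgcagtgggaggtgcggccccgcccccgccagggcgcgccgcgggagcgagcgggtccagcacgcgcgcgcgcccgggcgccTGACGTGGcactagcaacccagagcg
Copb1: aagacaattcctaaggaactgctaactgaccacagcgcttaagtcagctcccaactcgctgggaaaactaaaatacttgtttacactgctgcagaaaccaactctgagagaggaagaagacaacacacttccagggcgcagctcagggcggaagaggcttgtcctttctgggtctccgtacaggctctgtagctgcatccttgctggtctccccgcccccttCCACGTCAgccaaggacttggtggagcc

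Of these, Sec24d and Copb1 held TGACGTG, beginning 26 bases before the start on the gene's strand in Sec24d and 27 bases before it on the other strand in Copb1. Uso1 had 6 CCACG matches and 3 ACGT matches, Tmed3 had 1 and 2, Bet1 had 1 and 0, and Sec23b had 0 and 1. RefSeq windows from 250 bases before to 50 after the start were at hand for 40 of the 46 members. TGACGTG was found in 9 of these (22.5%), in 2.22% of all 27025 genes of the promoter table and in 3.42% of the 4889 genes at tested single-gene loci with a mean FPKM of at least 5. The 9 genes were Sec23a, Sec24d, Sec16b, Mia3, Arf1, Copb1, Copb2, Kdelr3 and Stx5a. Members were not filtered by the rule of the expressed genes, which Kdelr3, of low FPKM, and Stx5a, a combined locus, do not meet. CCACG was found in 77.5% of members, 35.5% of all genes and 53.7% of the expressed genes, and ACGT in 75.0% (30 of 40), 33.8% and 46.9%. The ER stress element, CCAAT followed after 9 bases by CCACG, was found in 0 of 40 members and in 0.137% of all genes. The median number of CG dinucleotides per window was 21.5 in members, 8 in all genes and 23 in the expressed genes. The median log2 fold change was -0.15 in the 9 genes with TGACGTG (range -0.66 to 0.64, the upper end being Kdelr3), of which 1 was called, and -0.28 in the 31 without it (range -1.17 to 0.17), of which 4 were called. The ranges overlap, and no test between these sets was run. These are letter matches and not binding sites.

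Among the 10 COPII coat genes Sec23b and Sec24d fell and the other 8 were not called, and their changes ran between -0.28 and -0.01. Sec23b and Sec24d form the inner layer, in which Sec23 activates the GTPase Sar1 and Sec24 binds cargo. Sec23b (chromosome 2, 144556229 to 144590753 on mm10) stood at 10.8 FPKM in LKO-labelled livers and 19.1 FPKM in WT livers, for a log2 fold change of -0.82 (implied SE 0.18, q = 0.00343 in the authors' deposited table). Its paralog Sec23a stood at 22.7 FPKM in LKO-labelled livers and 23.9 FPKM in WT livers. The log2 fold change of Sec23b was lower than that of Sec23a by a difference of -0.75 (combined SE 0.24), which was not tested across animals. Sec23b thus made up 32.2% of the summed Sec23 FPKM in LKO-labelled livers and 44.4% in WT livers. In humans, loss of SEC23B causes an inherited anaemia of red cell precursors.

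Sec24d (chromosome 3, 123267496 to 123365636) stood at 12.6 FPKM in LKO-labelled livers and 19.9 FPKM in WT livers, with a log2 fold change of -0.66 (implied SE 0.17) and q = 0.00637 in the authors' deposited table. The other 3 Sec24 paralogs, which prefer partly different cargo, were not called. Sec24a stood at 18.4 FPKM in LKO-labelled livers and 20.1 FPKM in WT livers. Sec24b, the lowest of the coat genes, stood at 4.88 FPKM in LKO-labelled livers and 4.90 FPKM in WT livers. Sec24c, given with Fut11 as a combined locus that the table does not separate, stood at 22.1 FPKM in LKO-labelled livers and 26.7 FPKM in WT livers. The difference in log2 fold change was -0.65 (combined SE 0.25) between Sec24d and Sec24b and -0.53 (combined SE 0.23) between Sec24d and Sec24a. Between Sec24d and Sec24c it was -0.38 (combined SE 0.24). Sec24d supplied 21.8% of the summed Sec24 FPKM in LKO-labelled livers and 27.8% in WT livers. The ratio of summed Sec24 to summed Sec23 was 1.73 in LKO-labelled livers and 1.67 in WT livers.

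The GTPases and the outer layer of the coat were not called. Sar1b, needed in humans to export large lipoproteins from the gut, was the most abundant of the 46 genes at 157 FPKM in LKO-labelled livers and 170 FPKM in WT livers (q = 0.999 in the authors' deposited table). Its paralog Sar1a stood at 40.1 FPKM in LKO-labelled livers and 42.0 FPKM in WT livers, so that Sar1b exceeded Sar1a by a ratio of 3.91 in LKO-labelled livers and 4.05 in WT livers. Of the outer layer, Sec13 stood at 40.6 FPKM in LKO-labelled livers and 41.1 FPKM in WT livers. Sec31a stood at 27.2 FPKM in LKO-labelled livers and 31.8 FPKM in WT livers, with p = 0.167 in the authors' deposited table.

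**Figure D4:**
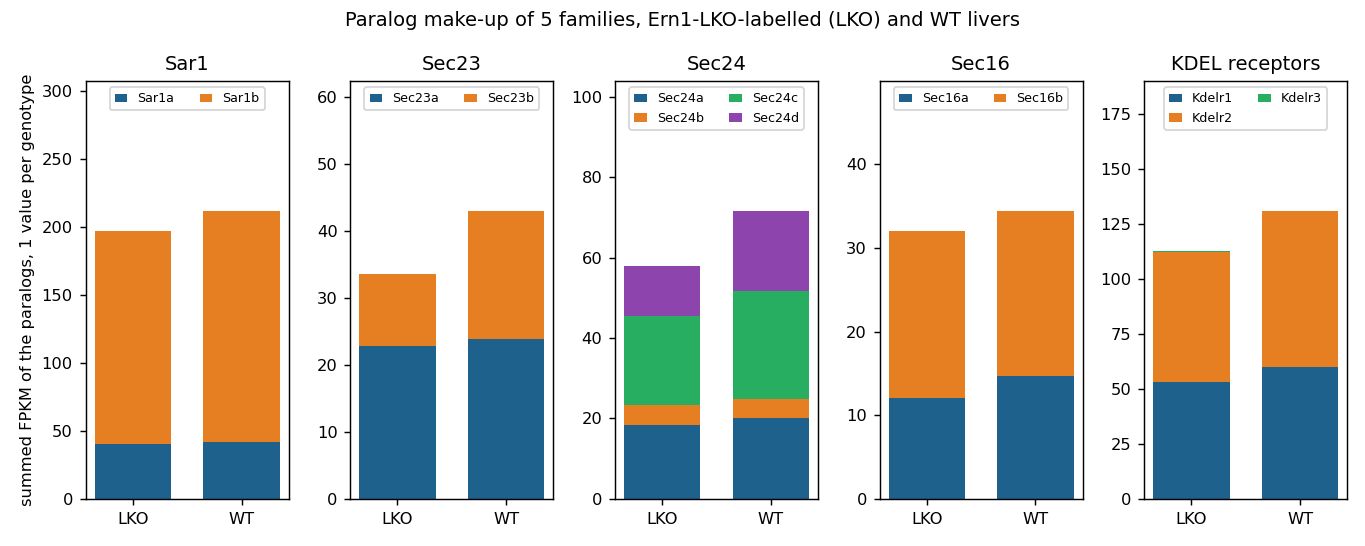
Summed FPKM of the paralogs of 5 families, stacked by paralog, in Ern1-LKO-labelled (LKO) and WT livers; each panel has its own axis from 0. Sec23b is 32.2% of the Sec23 stack in LKO and 44.4% in WT, and Sec24d 21.8% of the Sec24 stack in LKO and 27.8% in WT.

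None of the 4 ER exit site genes was called. Preb, the exchange factor that loads Sar1 with GTP at the ER, came nearest at 16.1 FPKM in LKO-labelled livers and 22.7 FPKM in WT livers (log2 fold change -0.49, implied SE 0.17, q = 0.0925 in the authors' deposited table). GENCODE M21 places 21.8% of the exonic bases of Preb over exons of Abhd1 on the opposite strand, and the sources used here do not say whether strand was used in counting. Sec16a, the main scaffold of exit sites, stood at 12.0 FPKM in LKO-labelled livers and 14.7 FPKM in WT livers. Its shorter paralog Sec16b stood at 20.0 FPKM in LKO-labelled livers and 19.7 FPKM in WT livers, above Sec16a in both. Mia3, known as TANGO1 and needed to package collagen, stood at 27.6 FPKM in LKO-labelled livers and 32.9 FPKM in WT livers. The locus given for Mia3 reaches 50.4 kb beyond the GENCODE gene, and those of 6 other members reach over 5 kb beyond theirs: Kdelr3 (19.0 kb), Copa (16.5 kb), Arf1 (14.5 kb), Surf4 (6.66 kb), Sec24c (6.15 kb) and Yif1a (5.64 kb).

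All 4 receptors for soluble cargo lay below WT, none was called, and 3 had an unadjusted p under 0.05. Surf4, which in mouse liver is known to export lipoproteins, stood at 67.5 FPKM in LKO-labelled livers and 95.9 FPKM in WT livers (log2 fold change -0.51, implied SE 0.18, q = 0.127 in the authors' deposited table). Lman2, a lectin that binds glycoproteins, stood at 41.5 FPKM in LKO-labelled livers and 59.3 FPKM in WT livers, with q = 0.0626 in the authors' deposited table. Lman1 and Mcfd2 form a receptor for coagulation factors V and VIII, and in humans loss of either lowers both factors. Lman1 stood at 57.6 FPKM in LKO-labelled livers and 75.7 FPKM in WT livers (q = 0.302 in the authors' deposited table). Its partner Mcfd2 was nearer to WT at 72.3 FPKM in LKO-labelled livers and 85.5 FPKM in WT livers.

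All 7 p24 genes lay below WT, 1 was called, and 5 had an unadjusted p under 0.05. The p24 proteins form mixed complexes of α, β, γ and δ members that cycle between ER and Golgi and help to sort cargo such as lipid-anchored proteins. Tmed3, a γ member on chromosome 9 (89699203 to 89705043), showed the greatest fall of the 46 genes, at 5.47 FPKM in LKO-labelled livers and 12.3 FPKM in WT livers. In the authors' deposited table its log2 fold change is -1.17 (implied SE 0.21) with q = 0.00343, and its level in LKO-labelled livers was 44.6% of WT. The γ members Tmed7 (27.2 FPKM in LKO-labelled livers, 35.3 FPKM in WT livers) and Tmed5 (17.9 FPKM in LKO-labelled livers, 21.8 FPKM in WT livers) were not called. The difference in log2 fold change between Tmed3 and Tmed7 was -0.79 (combined SE 0.27), and between Tmed3 and Tmed5 it was -0.88 (combined SE 0.27).

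Tmed2, the sole β member and the most abundant p24 gene, was the uncalled gene nearest to the threshold. It stood at 95.1 FPKM in LKO-labelled livers and 134.9 FPKM in WT livers, with a log2 fold change of -0.50 (implied SE 0.16) and q = 0.0578 in the authors' deposited table. The δ member Tmed10 stood at 30.7 FPKM in LKO-labelled livers and 39.8 FPKM in WT livers. Of the α members, Tmed9 stood at 52.0 FPKM in LKO-labelled livers and 72.2 FPKM in WT livers (q = 0.121 in the authors' deposited table), and Tmed4 at 33.8 FPKM in LKO-labelled livers and 38.6 FPKM in WT livers. Tmed3 is a minor part of the family, with 2.01% of its summed FPKM in LKO-labelled livers and 3.37% in WT livers. The sum of the p24 family, Tmed1 and the other family genes outside the 46 included, was 272 FPKM in LKO-labelled livers and 364 FPKM in WT livers, a ratio of 0.75. Tmed2 held 35.0% of that sum in LKO-labelled livers and 37.0% in WT livers.

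Bet1 fell among the 6 SNAREs that fuse vesicles between ER and Golgi. Bet1 (chromosome 6, 4076904 to 4086927) stood at 21.3 FPKM in LKO-labelled livers and 38.4 FPKM in WT livers, for a log2 fold change of -0.85 (implied SE 0.17, q = 0.00343 in the authors' deposited table). Its usual partners in the fusion complex were not called. Stx5a, the syntaxin of the complex, was given with 1700092M07Rik as a combined locus at 23.5 FPKM in LKO-labelled livers and 31.4 FPKM in WT livers (q = 0.288 in the authors' deposited table). Sec22b stood at 27.6 FPKM in LKO-labelled livers and 35.3 FPKM in WT livers, with an unadjusted p of 0.0452 in the authors' deposited table. Gosr2 stood at 22.6 FPKM in LKO-labelled livers and 26.3 FPKM in WT livers. Of the SNAREs known for transport within the Golgi, Gosr1 stood at 11.4 FPKM in LKO-labelled livers and 11.2 FPKM in WT livers, and Ykt6 at 32.0 FPKM in LKO-labelled livers and 34.5 FPKM in WT livers.

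Of the 3 genes grouped here as Golgi tethers Uso1 fell. Uso1 (chromosome 5, 92137938 to 92202795), also known as p115, tethers incoming vesicles at the Golgi, and stood at 15.6 FPKM in LKO-labelled livers and 25.9 FPKM in WT livers. Its log2 fold change in the authors' deposited table is -0.73 (implied SE 0.16), with q = 0.00343. Golgb1, or giantin, a coiled-coil protein that binds p115, stood at 6.43 FPKM in LKO-labelled livers and 7.10 FPKM in WT livers. Yif1a is a membrane protein that works with Yip family members and was only grouped with the tethers. Yif1a was 1 of the 4 genes above WT, at 33.5 FPKM in LKO-labelled livers and 29.8 FPKM in WT livers (q = 0.976 in the authors' deposited table).

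None of the 9 COPI genes was called, and all 9 lay below WT. The 7 coatomer subunits assemble as a complex with 1 copy of each, and their log2 fold changes ran between -0.47 and -0.13. The COPII coat genes ran between -0.82 and -0.01, and those of them not called between -0.28 and -0.01. Cope, the ε subunit, stood at 76.9 FPKM in LKO-labelled livers and 106 FPKM in WT livers (log2 fold change -0.47, implied SE 0.17, q = 0.138 in the authors' deposited table). Arcn1, the δ subunit, stood at 37.7 FPKM in LKO-labelled livers and 49.3 FPKM in WT livers, with an unadjusted p of 0.0193 in the authors' deposited table. Copa, Copb1 and Copg1 stood at 80.6%, 80.3% and 83.2% of WT. Copb2, at 38.4 FPKM in LKO-labelled livers and 42.3 FPKM in WT livers, and Copz1, at 69.5 FPKM in LKO-labelled livers and 76.3 FPKM in WT livers, were the nearest to WT. Levels of the 7 subunits were unequal in both genotypes, with Cope above Copg1 by a ratio of 4.07 in LKO-labelled livers and 4.69 in WT livers.

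Arf GTPases recruit coatomer to membranes. Arf1 stood at 129 FPKM in LKO-labelled livers and 142.9 FPKM in WT livers. Arf4, which also acts at the early Golgi, stood at 42.8 FPKM in LKO-labelled livers and 56.4 FPKM in WT livers, with an unadjusted p of 0.0169 in the authors' deposited table. The difference between their log2 fold changes, Arf4 minus Arf1, was -0.25 (combined SE 0.24), a size close to that of its error. In GENCODE M21, 17.7% of the exonic bases of Arf4 lie over exons of Arf4os and Pde12.

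KDEL receptors return ER chaperones that carry a KDEL-type tail. Kdelr2 stood at 59.0 FPKM in LKO-labelled livers and 70.8 FPKM in WT livers, with q = 0.681 in the authors' deposited table. Kdelr1 stood at 53.1 FPKM in LKO-labelled livers and 59.8 FPKM in WT livers, and Kdelr2 exceeded Kdelr1 by a ratio of 1.11 in LKO-labelled livers and 1.19 in WT livers. Kdelr3 was barely detected, at 0.38 FPKM in LKO-labelled livers and 0.25 FPKM in WT livers. Its log2 fold change of 0.64 in the authors' deposited table has an implied SE of 4.46 and says nothing of its direction.

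Other genes of the route were listed for their roles, also with earlier results of these data known. Of 65 symbols, 64 had a locus and 61 were tested, of which 1 fell and none rose (1.64%, where 1.16% of tested loci were called lower). Their median log2 fold change was -0.09, and 46 of 61 lay below WT. Arfgap3, a protein that makes Arf1 hydrolyse GTP on COPI vesicles, was the one that fell, at 1.57 FPKM in LKO-labelled livers and 3.24 FPKM in WT livers (log2 fold change -1.04, implied SE 0.23, q = 0.00343 in the authors' deposited table). Gorasp2, a Golgi stacking protein, stood at 32.6 FPKM in LKO-labelled livers and 44.7 FPKM in WT livers, with an unadjusted p of 0.0053 and q = 0.129 in the authors' deposited table. Tfg, which organises ER exit sites, stood at 19.4 FPKM in LKO-labelled livers and 25.2 FPKM in WT livers, with an unadjusted p of 0.0276 and q = 0.347 in the authors' deposited table. Bcap29, an ER membrane protein, lay above WT at 7.496 FPKM in LKO-labelled livers and 5.44 FPKM in WT livers, with an unadjusted p of 0.0249 and q = 0.331 in the authors' deposited table. Of the coat paralogs outside the 46 genes, Copg2, the second γ subunit of coatomer, stood at 9.35 FPKM in LKO-labelled livers and 8.45 FPKM in WT livers, or 33.1% of the summed γ subunits in LKO-labelled livers and 27.1% in WT livers. Copz2 stood at 17.4 FPKM in LKO-labelled livers and 16.7 FPKM in WT livers, Arf5 at 93.6 FPKM in LKO-labelled livers and 92.1 FPKM in WT livers, and Arf3 at 33.0 FPKM in LKO-labelled livers and 31.8 FPKM in WT livers. Arf2 lay on the other side, at 3.88 FPKM in LKO-labelled livers and 4.51 FPKM in WT livers. None of these paralogs was called.

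The members lie on 18 chromosomes, and the 4 closest pairs, at most 468 kb apart, hold no called gene. Sec24a and Sar1b lie 6.83 kb apart on chromosome 11, with log2 fold changes of -0.12 each. Lman2 and Tmed9 lie 230 kb apart on chromosome 13, with -0.52 and -0.47. Exons of the 5 called genes share no base with another gene in GENCODE M21.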

How the data were processed

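The submitters' labels describe liver total RNA, extracted with RNAiso and made into libraries with a NEBNext Ultra kit. Tools named, per the submitters' processing notes, are TopHat2 2.0.14, Cufflinks 2.2.1, FastQC 0.11.3 and bcl2fastq, with the mm10 build; their roles are not stated there. Per the file headers, the authors deposited a Cuffdiff comparison with 1 FPKM value per genotype, a log2 fold change of LKO over WT, a test statistic (a signed score), a p-value and a q-value. Loci that the authors did not test were left out of the shares of loci called or below WT and of the summary of other pathway genes. They were kept in the marker lists and in the summed p24 family.

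Members and lists were chosen with earlier results of these data known. Symbols were matched exactly, also within combined loci, and starts were raised by 1 to be 1-based. Calls are the authors' q under 0.05; no test across animals could be run on 1 value per genotype, and read depth is unknown. The implied SE is the absolute log2 fold change times ln 2 over that of the test statistic. As a z it was 1.02 times that of the deposited p (median of 4722 loci with a mean FPKM of at least 1 and a middle range of p). The 5 called genes, with a deposited p of 0.0001 or lower, lay outside that range, so their SEs were not checked. Kdelr3 shows that the implied SE fails at low FPKM. Combined SEs are root sums of squares. Every member is named, and of the other pathway genes the called one, and, chosen after their values were seen, those with an unadjusted p under 0.05 and further coat paralogs. Re-adjustment and centring were tested on simulated data. Promoters are from RefSeq; GENCODE M21 gave exons. A table of proteins was not used here. Computations used matplotlib 3.10.9, scipy 1.17.1, pandas 2.3.3, numpy 2.4.6 and Python 3.11.15.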

Additional observations from a re-analysis of the deposited data

How the results depend on the processing

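The 5 falls were counted again at q under 0.01, after filters at a mean FPKM of 1 or 5, after centring by a median of -0.02 and without combined loci. None of the 5 is a combined locus, so leaving those out could not change the count. All 5 pass both filters, which could change the count only through re-adjustment. At least a 2-fold change left 1, Tmed3, and an unadjusted p under 0.05 gave 18 members lower. Of the 13320 tested loci, 154 were called lower by the rule used and 97 at q under 0.01. With at least a 2-fold change 58 were called lower, and 604 were lower at an unadjusted p under 0.05. After filters at a mean FPKM of 1 and 5, 125 and 92 loci were called lower, and after centring 163. Of the other pathway genes an unadjusted p gave 3 lower and 1 higher, and a mean FPKM of at least 5 left 0, because Arfgap3 lies below it. Centring turned the sign of 2 genes that were not called, to 0.017 for Sec24b and 0.0052 for Sec13. Medians of the members and of the 8 roles, on the log2(FPKM + 1) scale, moved by less than the median implied SE with a pseudocount of 0.1, 0.5 or none, with either filter, after centring and without combined loci. Without the combined locus of Sec24c, Sec24a, Sec24b and Sec24d made up 51.2%, 13.6% and 35.2% of the Sec24 sum in LKO-labelled livers. The matching shares in WT livers are not given here, so these values alone do not compare the genotypes. With the 250 bases before the start alone, chosen after seeing the data as was the expressed background, TGACGTG was found in 15% of members, 1.85% of all genes and 2.84% of the expressed genes. CCACG was found in 67.5%, 31.0% and 47.9% of them, and ACGT in 62.5%, 29.6% and 41.8%. No paired analysis was possible because the table carries 1 value per genotype, and leaving out a library was not run for the same reason. Whether 1 animal carries a difference is not shown.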
